A study of Mus musculus with 3 samples.

Results

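Mural cells, a class that joins smooth muscle and pericytes, regulate blood flow through a gland by contracting around its vessels. Smooth muscle of the vessel wall holds a dense actomyosin apparatus, whereas pericytes share the basement membrane of the finest vessels and regulate their growth and stability. Nitric oxide from the endothelium relaxes mural cells through soluble guanylate cyclase and cyclic GMP, PDGF-B from endothelial cells recruits them through PDGFRβ, and endothelial Jagged ligands maintain them through NOTCH3. In the lacrimal gland (LG) they share an actomyosin apparatus with the myoepithelial cells (MECs), the basal epithelial cells that squeeze secretory acini. Here 203 of 19592 cells kept from 3 single-cell RNA sequencing libraries of adult mouse LG met a rule for mural cells. All 203 are called mural cells or members below, although 46 of them also held fibroblast transcripts. The 203 cells were chosen by their transcripts, as cells with 2 or more UMIs (unique molecular identifiers, counts of captured transcripts) summed over 5 mural markers: *Notch3*, *Des* (the muscle intermediate filament desmin), *Mustn1*, *Gucy1a1* (the alpha subunit of soluble guanylate cyclase) and *Rgs5* (a regulator of G protein signalling). They also held at most 1 UMI of the basal keratins *Krt5* and *Krt14* and no UMI of the leukocyte gene *Ptprc*, the epithelial gene *Epcam* or the endothelial gene *Cdh5*. These genes were used to choose the cells, so their levels are described below without a test.

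The libraries, named female replicate 1, male replicate 1 and male replicate 2, were each prepared from 6 whole glands pooled from 3 C57BL/6J mice aged 2 months, with no treatment or transgene named for any of them. Each is therefore 1 pool, its animals cannot be separated, and with 1 female library whose sequencing core and day also differ from the male libraries no test of sex was possible. All values below are given in the order female replicate 1, male replicate 1 and male replicate 2. The question asked of the data was what sets mural cells apart from their contractile counterparts, the MECs, and from their stromal neighbours, the fibroblasts. MECs were taken as cells with 2 or more UMIs of *Cck*, *Cnn1*, *Pcp4* and *Igfbp2* and at least 1 of *Krt5* or *Krt14* (878 cells). Fibroblasts were taken as cells with 3 or more UMIs of *Pdgfra*, *Col1a1* and *Lum* that met none of the other rules (2238 cells). No cell met the mural and the MEC rule together. Endothelial cells (1298 cells), given for their levels only, were those left with 3 or more UMIs of *Cdh5*, *Pecam1*, *Kdr*, *Flt1* and *Ptprb* and none of *Ptprc*, *Epcam* or *Pdgfra*. Fibroblasts and endothelial cells held at most 1 UMI of the mural markers.

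Mural cells made up 107 of 8298, 43 of 5582 and 53 of 5712 kept cells, or 1.29, 0.770 and 0.928%, with exact 95% binomial lower limits of 1.06, 0.558 and 0.696% and upper limits of 1.56, 1.04 and 1.21% that cover counting error only. Without the members that held 3 or more UMIs of the fibroblast genes, described below, the shares were 0.807, 0.735 and 0.858%, and the female library was no longer the highest. A member held a median of 3128, 1470 and 1214 UMIs, against 3641, 1804 and 1469.5 in MECs and 3175, 1616 and 1368 in fibroblasts of the same libraries. Transcripts of secreted tear products, which acinar cells shed into the suspension, took 31.3, 55.5 and 70.0% of the members' UMIs, so levels are given as CPM, counts per 1000000 UMIs outside the tear products. The value of male replicate 2 includes 2 members with 11638 and 34552 UMIs, of which 89.5 and 91.7% were tear products. Barcodes with over 500 UMIs that were not called as cells carried 86.2, 91.8 and 91.5% tear-product UMIs, and none of the 70227, 61851 and 58183 of them held 2 UMIs of the mural markers. The libraries shared 12 to 18 barcodes of called cells between pairs.

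Transcripts of the 5 selecting markers were spread unevenly over the members. Of the 203 cells, 49 held 1 of the 5 genes, 66 held 2, 36 held 3, 33 held 4 and 19 held all 5. *Rgs5* was at 3576, 3396 and 2713 CPM, *Notch3* at 447, 515 and 653 CPM, *Des* at 499, 970.3 and 979.8 CPM, *Mustn1* at 710.5, 909.7 and 1055 CPM and *Gucy1a1* at 619, 728 and 402 CPM. In MECs the same genes lay between 0 and 44.8 CPM as means of the 3 libraries, and in fibroblasts between 0.0890 and 30.7 CPM.

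The label was checked with *Acta2*, *Myh11* and *Tagln*, contractile genes that the selection did not use, and part of the female members went against it. In female replicate 1, 40 of the 107 members held 3 or more UMIs of the fibroblast genes *Pdgfra*, *Col1a1* and *Lum*, and 37 of these 40 held at most 1 UMI of *Acta2*, *Myh11* and *Tagln* together. These 40 members held 111599 of the 250530 female mural UMIs outside the tear products. In the male libraries 2 of 43 and 4 of 53 members held 3 or more fibroblast UMIs. The difference lay at the edge of the selection. Just inside it, among the 34, 13 and 15 members with exactly 2 marker UMIs, 0, 6 and 6 had 2 or more contractile UMIs and 29, 1 and 4 had 3 or more fibroblast UMIs. Just outside it, among the 281, 80 and 58 cells with 1 marker UMI that met the other limits, 3, 3 and 9 had 2 or more contractile UMIs and 246, 44 and 17 had 3 or more fibroblast UMIs. Among the 61, 17 and 20 members with 5 or more marker UMIs, 52, 14 and 19 were contractile by the same count. Counts over the gene lists are therefore also given for the 157 members (67, 41 and 49) with under 3 fibroblast UMIs, an alternative added after seeing the data, in which low fibroblast genes are partly fixed by the choice. Levels and tests of single genes include all members unless stated otherwise.

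**Figure D1:**
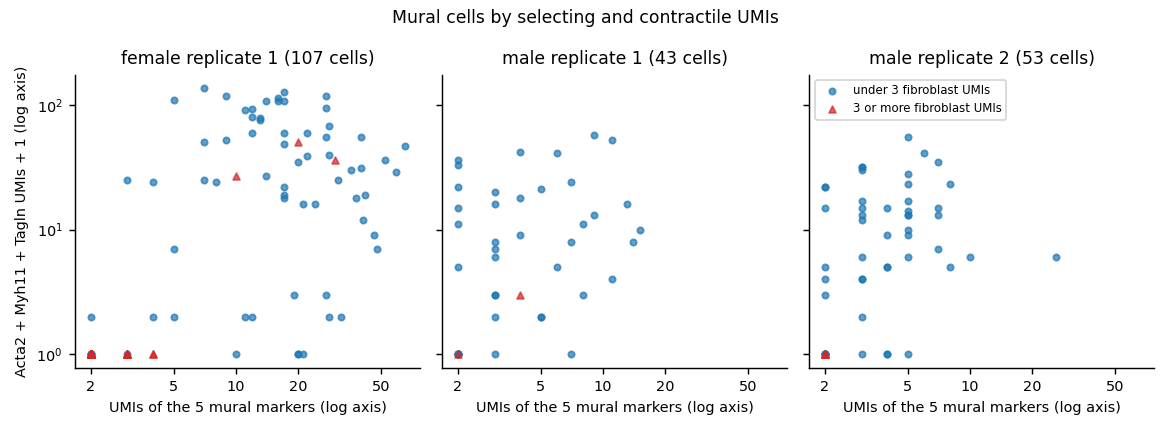
Each point is 1 mural cell, by its UMIs of the 5 selecting markers (x, log axis) and of Acta2, Myh11 and Tagln plus 1 (y, log axis), in the 3 libraries. The red triangles with 3 or more fibroblast UMIs number 40, 2 and 4 and, in the female library, crowd at the lower left, where few marker UMIs go with no contractile UMI.

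Mural cells carried smooth muscle genes at levels that overlapped those of MECs and lay far above fibroblasts and endothelial cells. *Acta2*, smooth muscle alpha-actin, was at 4694, 7035 and 6557 CPM in mural cells and 5954, 8615 and 7692 CPM in MECs, but at 3.74, 14.2 and 5.44 CPM in fibroblasts and 9.56, 22.6 and 32.6 CPM in endothelial cells. With all members counted, the ranges of mural cells and MECs overlapped, MECs were higher within each library, and the other classes lay below both. The female mural level includes the 40 members with 3 or more fibroblast UMIs, so this order holds for all members only. Without such members the 9 label genes, *Acta2* among them, summed to 24797 CPM in the female library. That sum was 14629 CPM with all members and 13534 CPM in MECs. *Myh11*, the smooth muscle myosin heavy chain, was at 2363, 2517 and 1809 CPM in mural cells and 2103, 1648 and 1492 CPM in MECs. *Tagln* (transgelin) was at 3859.8, 5670.3 and 5979 CPM and 3196, 5029 and 4659 CPM in the same classes. Pericyte genes parted mural cells from MECs. *Pdgfrb*, the receptor for PDGF-B, was at 463, 515 and 452 CPM in mural cells, 5.93, 0 and 9.85 CPM in MECs, 204, 196 and 136 CPM in fibroblasts and 0.598, 0 and 0 CPM in endothelial cells, so that mural cells were highest in each library. *Kcnj8*, the pore subunit of the vascular ATP-sensitive potassium channel, had 13, 3 and 2 UMIs in mural cells (51.9, 91.0 and 50.2 CPM), none in MECs and endothelial cells, and 18, 3 and 1 UMIs in fibroblasts (4.81, 7.09 and 5.44 CPM).

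*Acta2* was detected in 52.3, 72.1 and 71.7% of mural cells, and in 40.2, 51.2 and 52.8% when each cell was thinned to 500 UMIs. Fibroblasts, which should lack it, gave 0.906, 0.846 and 0.455%, and endothelial cells 1.40, 1.82 and 0.606% at median depths of 2673, 1483 and 1238 UMIs. *Pdgfrb* was detected in 52.3, 34.9 and 26.4% of mural cells and in 0.831, 0 and 0.862% of MECs, or 12.1, 11.6 and 9.43% and 0.277, 0 and 0% after thinning.

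**Figure D2:**
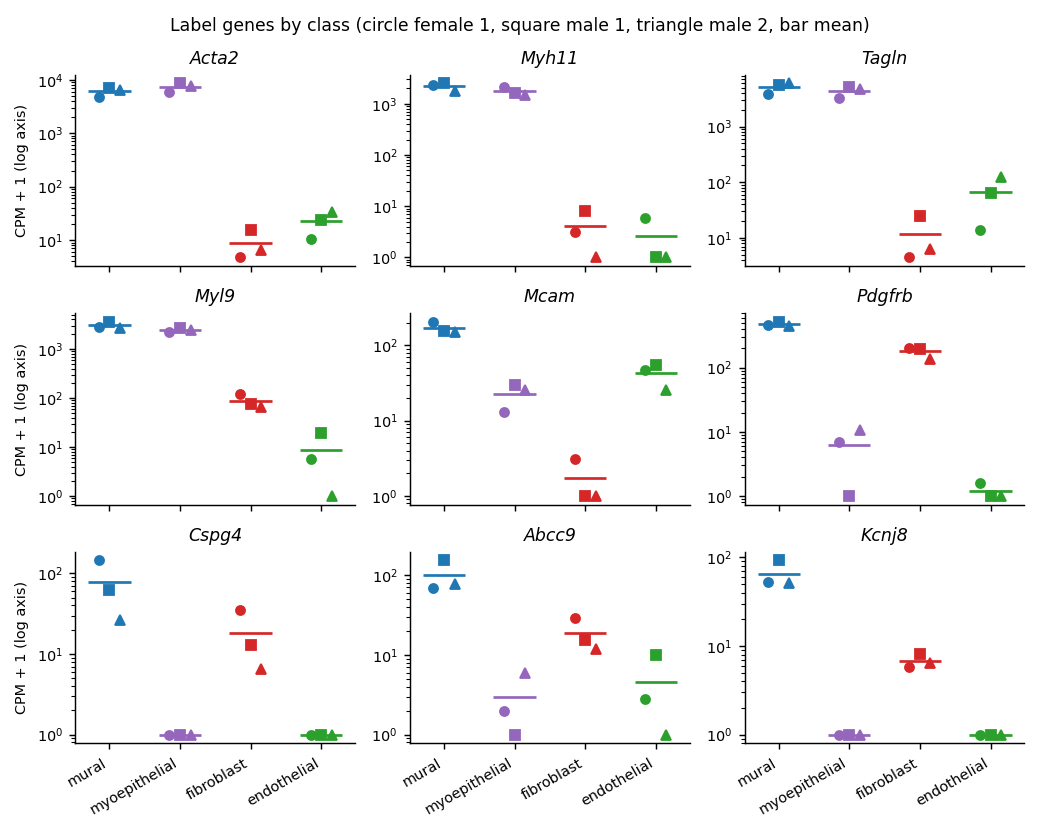
Levels of 9 label genes outside the selection, in CPM plus 1 on a log axis, for each class of cells. Symbols are the 3 libraries and bars their mean. Mural cells and myoepithelial cells lie together for Acta2, Myh11, Tagln and Myl9, whereas Pdgfrb, Cspg4, Abcc9 and Kcnj8 separate them.

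Differences between classes were tested with edgeR (quasi-likelihood test on UMIs summed per library and class, library as a block, Benjamini-Hochberg adjustment over all genes tested, threshold 0.05), and log2 fold changes are given with their SE from that fit. The mural sums entered both comparisons, which are therefore given side by side and not set against each other. Against fibroblasts, 405 of 5290 genes were higher in mural cells (7.66%) and 361 were lower (6.82%). Against MECs, 685 of 5289 genes were higher (13.0%) and 510 were lower (9.64%). Without the female library, which gave the most mural UMIs, 255 genes were higher against fibroblasts and 320 higher and 295 lower against MECs. Without the members with 3 or more fibroblast UMIs the shares were 10.4% higher and 13.3% lower against fibroblasts, and 10.4% higher and 10.2% lower against MECs. Mitochondrial shares of 5% or more were found in 26.2, 16.3 and 15.1% of mural cells, 12.7, 3.86 and 5.17% of MECs and 4.79, 1.27 and 5.45% of fibroblasts, so mural cells had the most in every library. With cells under 5% alone, 240 genes were higher and 216 lower than in fibroblasts. The median log2 fold change over all genes tested was -0.071 against fibroblasts and -0.0071 against MECs. A gene passed the low-count limit where any class had enough UMIs, so counts over lists cover tested members only. A sparse gene could pass through its mural UMIs alone, and such a gene could hardly be called lower in mural cells.

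The contractile apparatus was higher than in fibroblasts in nearly all its members. Against MECs most of them were not called, as were most of all genes tested (13.0% higher and 9.64% lower). Of 26 genes in the list, 25 were tested against fibroblasts and 24 were higher, with a median log2 fold change of 4.28. All 25 were higher for the 157 members. *Smtn* (smoothelin) was the exception among all members, at 1.14 ± 0.39 (edgeR adjusted p = 0.0538). *Acta2* was higher by 9.80 ± 0.30 (edgeR adjusted p = 1.60e-16) on the log2 scale, *Myh11* by 9.69 ± 0.34 (edgeR adjusted p = 1.59e-15) and the myosin light chain *Myl9* by 4.85 ± 0.23 (edgeR adjusted p = 2.30e-13). *Lmod1* (leiomodin), which nucleates smooth muscle actin filaments, was at 247, 394 and 176 CPM in mural cells and 1.34, 0 and 0 CPM in fibroblasts. *Actg2* and *Synpo2*, an actin and a synaptopodin of smooth muscle, were at 43.9, 152 and 100.5 CPM and 164, 212 and 176 CPM in mural cells.

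Against MECs, 24 of the contractile genes were tested, of which 2 were higher, 4 were lower and 18 were not called, with a median log2 fold change of -0.11. The higher genes were *Filip1l*, a filamin-interacting protein, at 507, 546 and 502 CPM in mural cells and 5.93, 17.9 and 4.92 CPM in MECs (log2 fold change 5.95 ± 0.36, edgeR adjusted p = 2.51e-11), and *Ppp1r14a*, the CPI-17 inhibitor of myosin phosphatase, at 259, 637 and 628 CPM and 78.1, 150.4 and 123 CPM (1.93 ± 0.28, edgeR adjusted p = 9.49e-06). The lower genes were *Tpm2* (beta-tropomyosin, -0.97 ± 0.17, edgeR adjusted p = 9.24e-05), *Csrp1* (an actin-bundling LIM protein, -1.85 ± 0.23, edgeR adjusted p = 1.02e-06), *Pdlim3* (-0.87 ± 0.27, edgeR adjusted p = 0.0230) and *Mylk*, the myosin light chain kinase (-0.77 ± 0.18, edgeR adjusted p = 0.00246). *Csrp1* was at 319, 273 and 603 CPM in mural cells and 1102, 1676 and 1556 CPM in MECs, and the groups did not overlap. *Cnn1* (calponin 1), which the MEC selection used and which is given without a test, was at 112, 121 and 75.4 CPM in mural cells and 1274, 1769.6 and 1458 CPM in MECs. Without the members with 3 or more fibroblast UMIs, 9 contractile genes were higher than in MECs and 2 were lower, the median moved to 0.33, and the calls of *Mylk* and *Pdlim3* were lost while *Myh11* (0.70, edgeR adjusted p = 0.00321), *Tagln* (0.60, edgeR adjusted p = 0.0239) and *Myl9* (0.59, edgeR adjusted p = 0.0122) became higher. Of these calls, that of *Pdlim3* against MECs was lost without the female library (-0.82, edgeR adjusted p = 0.258) and without male replicate 2 (-0.84, edgeR adjusted p = 0.0566).

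**Figure D3:**
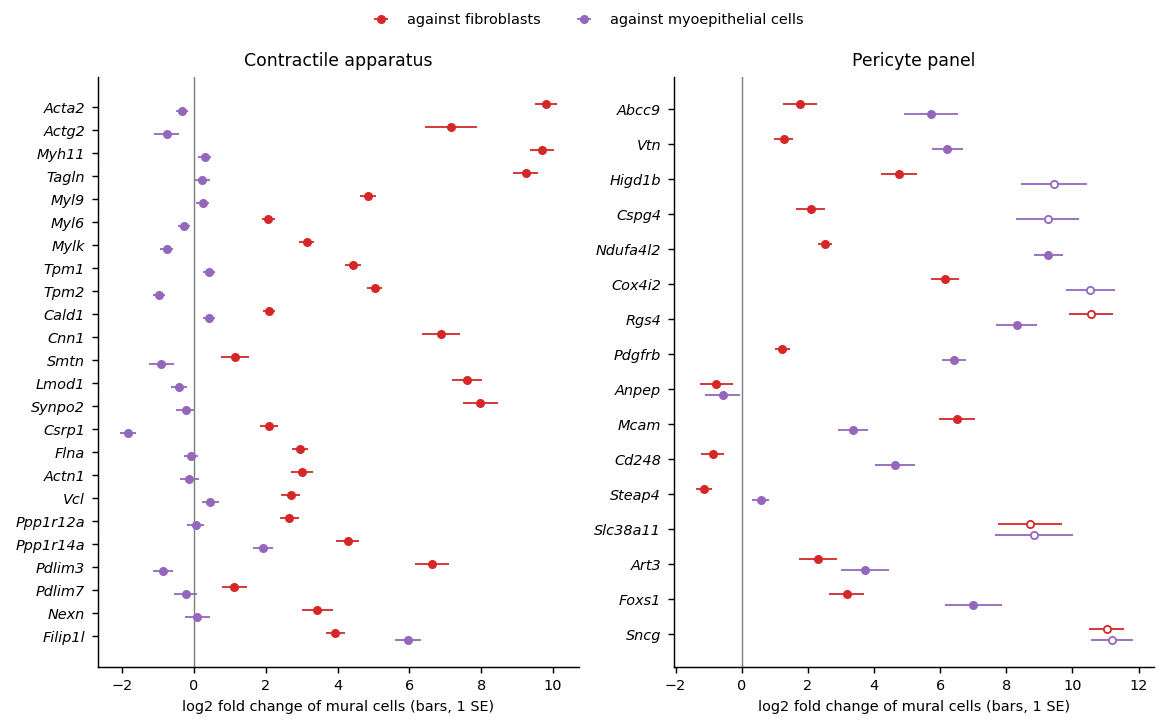
Log2 fold changes of mural cells against fibroblasts (red) and against myoepithelial cells (purple) for tested genes of the contractile list (left) and the pericyte panel (right), with bars of 1 SE. Open symbols mark genes with no UMI in the other class, whose fitted value depends on the prior count and is no bound. Contractile genes lie far to the right against fibroblasts and near 0 against myoepithelial cells, whereas most pericyte genes lie to the right against both.

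Smooth muscle genes are classically driven by serum response factor and its cofactor myocardin through the CArG box, a short motif of CC, 6 bases of A or T, and GG. The windows were searched because nearly all tested genes of the contractile list were higher than in fibroblasts. RefSeq promoters of GRCm38.p6, 250 bases before to 50 after each start, were at hand for 21 of the 26 contractile genes. Of these, 5 held an exact CArG box (23.8%), as did 1.81% of all 27025 genes. None of the 11 pericyte panel genes matched or of the 5 selecting markers held it. The motif is its own reverse complement, so 1 strand was read. A match is a description and no match says only that these letters are not in the window. The stretches around 4 of these boxes, shown because their genes were tested, 5′ to 3′ with the box in capitals, were taken upstream of the starts of *Myl9* at chr2:156775278-156775337 on the + strand, *Vcl* (vinculin) at chr14:20929148-20929205 on the + strand, *Myl6* (the essential myosin light chain) at chr10:128493025-128493084 on the - strand and *Filip1l* at chr16:57549155-57549214 on the + strand:
Myl9: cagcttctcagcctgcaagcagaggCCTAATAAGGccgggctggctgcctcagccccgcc
Vcl: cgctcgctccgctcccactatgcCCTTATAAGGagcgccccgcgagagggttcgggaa
Myl6: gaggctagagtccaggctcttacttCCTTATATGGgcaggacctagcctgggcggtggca
Filip1l: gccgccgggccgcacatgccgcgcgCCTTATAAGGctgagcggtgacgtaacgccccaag
The box began 161, 227, 50 and 62 bases before the start, in that order. *Ldb3* was the fifth gene with a box. Its 7 mural UMIs were too few to test. *Vcl* and *Filip1l* carried the same 10 letters. In mural cells *Myl9* was at 2782, 3578 and 2738 CPM, *Vcl* at 279, 394 and 276 CPM, *Myl6* at 3517, 4609 and 4321 CPM and *Filip1l* at 507, 546 and 502 CPM, and all 4 were higher than in fibroblasts, *Vcl* by 2.69 ± 0.26 (edgeR adjusted p = 7.41e-08) and *Myl6* by 2.07 ± 0.17 (edgeR adjusted p = 4.37e-09) on the log2 scale.

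The pericyte panel separated mural cells from MECs most widely. Of 18 genes, 16 were tested against MECs, of which 14 were higher and none lower, with a median log2 fold change of 6.71, or 5.91 with the 5 genes that had no MEC UMI placed at their lower bound. For the 157 members 14 were tested and 13 of them were higher. *Sncg* (gamma-synuclein) had 88, 21 and 25 UMIs in mural cells (351, 637 and 628 CPM) and none in MECs or fibroblasts (endothelial cells, 62.2, 72.4 and 97.8 CPM), at least 206-fold and 601-fold higher against a floor of 3 counts over the class. *Cox4i2*, a lung- and vessel-type isoform of cytochrome oxidase subunit 4, was at 199.6, 576 and 301 CPM in mural cells, at least 125-fold above MECs. *Ndufa4l2*, a paralogue of the respiratory subunit NDUFA4, was at 475, 819 and 452 CPM in mural cells with 1 UMI in MECs, a ratio of 758 (95% counting interval 134 to 30100.4). *Rgs4*, which like *Rgs5* shortens G protein signals, was at 287, 91.0 and 427 CPM with 1 UMI in MECs, and none in fibroblasts or endothelial cells. *Vtn* (vitronectin) was at 236, 212 and 402 CPM in mural cells and 4.94, 0 and 0 CPM in MECs. *Mcam*, the adhesion molecule CD146, was at 204, 152 and 151 CPM in mural cells, 11.9, 28.7 and 24.6 CPM in MECs and 2.14, 0 and 0 CPM in fibroblasts.

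Against fibroblasts 13 of 16 tested pericyte genes were higher and 1 was lower, with a median log2 fold change of 2.42. Of the 14 tested for the 157 members, 12 were higher and 2 lower. *Ndufa4l2* was higher by 2.52 ± 0.22 (edgeR adjusted p = 9.33e-09), *Pdgfrb* by 1.23 ± 0.23 (edgeR adjusted p = 4.07e-04) and *Abcc9*, the sulfonylurea subunit that pairs with the *Kcnj8* channel, by 1.76 ± 0.50 (edgeR adjusted p = 0.0167) on the log2 scale. *Vtn* was higher by 1.26 ± 0.28 (edgeR adjusted p = 0.00229), a call that was lost when the cells with the highest doublet scores were left out (0.96, edgeR adjusted p = 0.0514). *Steap4*, a metalloreductase, was the lower gene, at 367, 303 and 176 CPM in mural cells and 554, 794 and 659 CPM in fibroblasts (-1.15 ± 0.25, edgeR adjusted p = 0.00165). The vascular smooth muscle panel gave 3 higher genes of 7 tested against MECs and 6 of 8 against fibroblasts, and none lower in either, or 3 of 7 and 7 of 8 for the 157 members. *Pln* (phospholamban), the brake on the sarcoplasmic calcium pump, had 45, 7 and 4 mural UMIs and none in the other 3 classes, at least 86.2-fold above MECs and 251-fold above fibroblasts, although the DESeq2 alternative did not call it in either comparison. *Itga8*, an integrin subunit of smooth muscle, was at 112, 121 and 25.1 CPM in mural cells and 3.96, 3.58 and 0 CPM in MECs (log2 fold change 4.81 ± 0.57, edgeR adjusted p = 6.25e-07). *Myocd* (myocardin), the smooth muscle cofactor of serum response factor, had 10, 1 and 2 UMIs in mural cells and none in MECs, fibroblasts or endothelial cells, too few to test. Among these calls, that of *Abcc9* against fibroblasts was lost without male replicate 1 (1.36, edgeR adjusted p = 0.115).

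Within the members, pericyte-panel and smooth muscle transcripts were unequally spread over cells. The members with under 3 fibroblast UMIs were split by any UMI of *Rgs5* and by 2 or more UMIs of *Acta2*, *Myh11* and *Tagln*, a split chosen after the values were seen and described without a test. Both held in 86 cells (38, 21 and 27). Another 34 cells (13, 9 and 12) were contractile by this count without *Rgs5*, 28 cells (11, 8 and 9) held *Rgs5* with under 2 contractile UMIs, and 9 cells had neither. Every group was found in each library. Levels of genes expressed together with *Rgs5* or the contractile genes were partly fixed by this split. Median depths were 3066, 1529 and 1209 UMIs, 3446, 1514 and 1419.5 UMIs and 2263, 1302 and 1105 UMIs in the groups with both, with contractile UMIs only and with *Rgs5* only, in that order, and at these depths a transcript can be missed in a cell that holds it. The contractile-only cells had the highest median mitochondrial share in every library, at 7.35, 6.19 and 4.01%, against 4.03, 2.99 and 3.28% in the cells with both and 3.36, 2.56 and 1.72% in the Rgs5-only cells. *Fos*, which dissociation can raise, was at 6730.0 CPM in them, 2870.3 CPM in the cells with both and 2351 CPM in the Rgs5-only cells. The part of these differences in the levels below was not tested.

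The 28 Rgs5-only cells held 13 UMIs of *Kcnj8* (9, 2 and 2), or 478 CPM, against 4 in the 86 cells with both (33.5 CPM) and 0 in the 34 contractile cells without *Rgs5*. *Abcc9* gave 17 UMIs (13, 3 and 1), 5 and 0 in the same order. These subunits of the ATP-sensitive potassium channel were thus at a higher level in the 28 cells than in either contractile group in all 3 libraries, on few UMIs. With the libraries pooled, where the female library weighs most, *Vtn* was at 845, 268 and 81.3 CPM in the Rgs5-only, the combined and the contractile-only cells, *Pdgfrb* at 1249, 477 and 244 CPM and *Cox4i2* at 992, 309.6 and 244 CPM. Single libraries did not all keep this order. In male replicate 2 *Vtn* was highest in the combined cells, at 150.0, 678 and 93.8 CPM, and so was *Pdgfrb* in male replicate 1, at 522, 558 and 412 CPM. The 9 Rgs5-only cells of male replicate 2 held 6665 UMIs outside the tear products. Among them was 1 member with 34552 UMIs, 91.7% of them tear products, with 2 UMIs of *Rgs5* and 0 of *Pdgfrb*. The part of this member in the levels of that group was not tested. *Cox4i2* was highest in the Rgs5-only cells of each library, but the contractile-only cells lay above the combined cells in both male libraries (275 against 124 CPM and 281 against 226 CPM). The whole pericyte panel summed to 7054, 4695 and 3212 CPM, and had this order in each library.

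Some smooth muscle genes had no or few UMIs in the Rgs5-only cells. This direction was partly fixed by the split, which asked for under 2 contractile UMIs in those cells. *Pln*, *Casq2* (calsequestrin 2, a calcium store protein) and *Foxs1* had none in these 28 cells. *Pln* was at 259 CPM in the cells with both and 508 CPM in the contractile cells without *Rgs5*, while *Casq2* was highest in the cells with both, at 259 CPM against 142 CPM. *Ppp1r14a*, the CPI-17 gene, was at 36.7, 435 and 1078 CPM from the Rgs5-only to the contractile-only cells. *Sncg*, counted in the pericyte panel, was instead found nearly all in contractile cells, with 1, 89 and 40 UMIs in the 3 groups. *Foxs1* of the same panel gave 0, 26 and 6 UMIs. The vascular smooth muscle panel summed to 294, 1833 and 3233 CPM over the libraries, but in male replicate 2 the cells with both were highest, at 150.0, 1751 and 1313 CPM. The 46 members with 3 or more fibroblast UMIs held 40 UMIs of *Rgs5* and 46 of *Acta2* beside 1693 of the fibroblast proteoglycan gene *Dcn*, and 4 of them had 2 or more contractile UMIs.

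**Figure D4:**
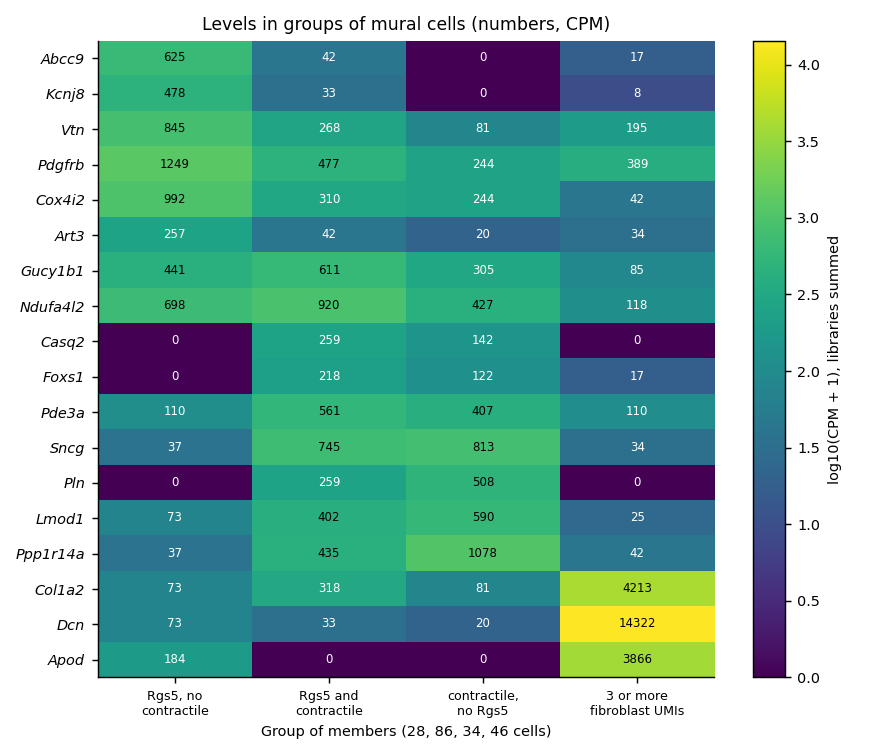
Levels of 18 genes in 4 groups of mural cells, as log10(CPM + 1) in colour and CPM in numbers, with UMIs summed over the libraries. Abcc9, Kcnj8 and Vtn are highest in the 28 cells with Rgs5 and under 2 contractile UMIs (first column), Pln and Ppp1r14a in the 34 contractile cells without Rgs5, and Col1a2, Dcn and Apod in the 46 cells with 3 or more fibroblast UMIs. These orders are partly fixed by the genes that made the groups.

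Genes of nitric oxide and cyclic GMP signalling, the main relaxing pathway of vessels, were high in mural cells. Of the list of 15, 8 were tested, of which 5 were higher and 1 (*Pde1c*) lower against MECs, and 6 were higher and none lower against fibroblasts, as many as for the 157 members. *Gucy1b1*, the beta subunit that pairs with the selecting gene *Gucy1a1*, was at 359, 303 and 251 CPM in mural cells, 9.89, 3.58 and 4.92 CPM in MECs and 22.4, 28.4 and 21.8 CPM in fibroblasts, above both in every library (log2 fold changes 5.35 ± 0.37, edgeR adjusted p = 2.01e-10 and 3.78 ± 0.29, edgeR adjusted p = 1.55e-09). *Prkg1*, the cyclic GMP-dependent kinase, was higher than in fibroblasts (1.92 ± 0.35, edgeR adjusted p = 3.64e-04) and at 124, 91.0 and 50.2 CPM in mural cells against 154, 89.6 and 123 CPM in MECs (not called). *Prkar1a*, a regulatory subunit of the cyclic AMP kinase, was at 419, 546 and 377 CPM in mural cells and higher than in MECs by 1.25 ± 0.22 (edgeR adjusted p = 1.27e-04) and than in fibroblasts by 1.37 ± 0.22 (edgeR adjusted p = 9.33e-05). The PKG substrate at the calcium store, *Mrvi1*, was at 164, 91.0 and 100.5 CPM in mural cells and was higher than in both. Of the phosphodiesterases, which end cyclic nucleotide signals, *Pde5a* was at 188, 303 and 176 CPM (log2 fold changes 1.67 ± 0.31, edgeR adjusted p = 1.72e-04 and 2.36 ± 0.31, edgeR adjusted p = 5.32e-06) and *Pde3a* at 331, 273 and 276 CPM. *Pde3a* had 1 UMI in MECs, a ratio of 476 (95% counting interval 83.5 to 18972), and was higher than in fibroblasts by 3.43 ± 0.31 (edgeR adjusted p = 1.80e-08) on the log2 scale. Without the female library the calls of *Prkg1* (1.66, edgeR adjusted p = 0.297, against fibroblasts), *Mrvi1* (1.01, edgeR adjusted p = 0.479, against myoepithelial cells) and *Pde1c* (-6.55, edgeR adjusted p = 0.0618, against myoepithelial cells) were lost.

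Receptors for vasoactive signals were sparse, and 8 of 37 genes in the list were tested. Of these, 7 were higher and 1 lower than in MECs, and 3 were higher and 2 lower than in fibroblasts, or 6 and 1 and 4 and 2 for the 157 members. A sparse receptor could be tested through its mural UMIs alone, so these counts lean towards higher. *Ednra*, the endothelin receptor of smooth muscle, was at 87.8, 91.0 and 126 CPM in mural cells, 37.6, 14.3 and 14.8 CPM in MECs and 17.9, 2.36 and 16.3 CPM in fibroblasts (1.68 ± 0.48, edgeR adjusted p = 0.0104 and 2.62 ± 0.48, edgeR adjusted p = 3.73e-04). *Adra2a*, an inhibitory adrenergic receptor, had 11, 5 and 10 UMIs in mural cells and none in MECs, at least 40.0-fold higher, and was higher than in fibroblasts by 4.70 ± 0.64 (edgeR adjusted p = 1.69e-05) on the log2 scale. *P2rx1*, an ATP-gated channel of smooth muscle, had 30, 5 and 2 UMIs in mural cells and none in MECs, fibroblasts or endothelial cells, at least 57.0-fold and 166-fold higher than in the classes compared, without a test because it fell under the count limit. *Npy1r*, a receptor of the sympathetic cotransmitter neuropeptide Y, was at 315, 212 and 377 CPM in mural cells and 198, 248 and 201 CPM in fibroblasts (not called), but at 3.96, 3.58 and 4.92 CPM in MECs. *Ramp1*, which turns the calcitonin-like receptor into a CGRP receptor, was at 128, 182 and 327 CPM in mural cells and was higher than in MECs by 4.49 ± 0.47 (edgeR adjusted p = 1.00e-07) and than in fibroblasts by 1.72 ± 0.33 (edgeR adjusted p = 6.96e-04). Its partner *Calcrl* had 13, 0 and 0 mural UMIs. *Ramp2*, the adrenomedullin counterpart of *Ramp1*, was at 91.8, 0 and 100.5 CPM in mural cells, 23.7, 28.7 and 24.6 CPM in MECs, 207, 352 and 376 CPM in fibroblasts and 501, 602 and 546 CPM in endothelial cells, and lost its higher call against MECs when 3 marker UMIs were asked of a member (-0.076, edgeR adjusted p = 0.965) and without the female library (0.89, edgeR adjusted p = 0.613). *S1pr3*, a receptor for sphingosine 1-phosphate, was at 199.6, 91.0 and 25.1 CPM and higher than in MECs by 5.22 ± 0.60 (edgeR adjusted p = 3.86e-07). *P2ry14*, a receptor for UDP-glucose, was at 99.8, 0 and 50.2 CPM, higher than in MECs (4.24 ± 0.59, edgeR adjusted p = 5.67e-06) and lower than in fibroblasts (-1.13 ± 0.34, edgeR adjusted p = 0.0259). *Chrm3*, the muscarinic receptor of secretory and contractile cells, was the receptor lower than in MECs, and *Oxtr*, the oxytocin receptor, had 1 UMI in all mural cells. With 1 library left out, the call of *P2ry14* against MECs was lost without the female library (3.28, edgeR adjusted p = 0.238) and that of *P2ry14* against fibroblasts was lost without the female library (-2.09, edgeR adjusted p = 0.136).

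Of 30 genes of ion channels and calcium handling, 13 were tested. Of these, 9 were higher and 1 lower than in MECs, and 11 were higher and 2 lower than in fibroblasts. For the 157 members these counts were 10 and 1 and 11 and 1. *Ano1*, the calcium-activated chloride channel that depolarises smooth muscle, was at 128, 91.0 and 201 CPM in mural cells, 65.3, 43.0 and 34.5 CPM in MECs and 0.801, 0 and 5.44 CPM in fibroblasts (1.27 ± 0.38, edgeR adjusted p = 0.0154 and 6.92 ± 0.58, edgeR adjusted p = 6.28e-09). The call of *Ano1* against MECs was lost without the female library (1.76, edgeR adjusted p = 0.0719) and without male replicate 2 (0.97, edgeR adjusted p = 0.0898). *Atp2a2*, the SERCA2 calcium pump that *Pln* restrains, was at 583, 515 and 352 CPM in mural cells, 810.0, 749 and 753 CPM in MECs and 246, 243 and 185 CPM in fibroblasts, lower than in MECs (-0.65 ± 0.21, edgeR adjusted p = 0.0245) and higher than in fibroblasts (1.03 ± 0.22, edgeR adjusted p = 0.00170). Its call against MECs was lost without the members with 3 or more fibroblast UMIs (-0.32, edgeR adjusted p = 0.375). It was also lost with at least 3 marker UMIs per member (-0.43, edgeR adjusted p = 0.24). The *Atp2a2* call against fibroblasts was lost with mitochondrial shares under 5% (0.58, edgeR adjusted p = 0.154). *Atp2b4*, a plasma membrane calcium pump, was at 267, 91.0 and 126 CPM and higher than in both (2.75 ± 0.34, edgeR adjusted p = 1.30e-06 and 1.82 ± 0.30, edgeR adjusted p = 1.35e-04). Gap junction genes were among the higher ones. *Gja4* (connexin 37) was at 128, 91.0 and 201 CPM in mural cells, 0 in MECs, 0.534, 0 and 0 CPM in fibroblasts and 55.6, 40.7 and 32.6 CPM in endothelial cells. *Gjc1* (connexin 45) was at 208, 303 and 201 CPM in mural cells and was higher than in MECs by 4.20 ± 0.45 (edgeR adjusted p = 1.44e-07) and than in fibroblasts by 1.77 ± 0.34 (edgeR adjusted p = 5.24e-04). *Kcnmb1*, the smooth muscle subunit of the large-conductance potassium channel, had 13, 3 and 2 mural UMIs and none in fibroblasts, at least 80.8-fold higher, and did not differ by the test from MECs (0.16 ± 0.47, edgeR adjusted p = 0.888). As to single libraries, the call of *Atp2a2* against MECs was lost without male replicate 2 (-0.55, edgeR adjusted p = 0.220), that of *Atp2a2* against fibroblasts was lost without the female library (0.76, edgeR adjusted p = 0.120), that of *Atp2b4* against MECs was lost without the female library (2.02, edgeR adjusted p = 0.0711) and that of *Atp2b4* against fibroblasts was lost without the female library (0.74, edgeR adjusted p = 0.593).

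In the signals that bind mural cells to the endothelium, 4 of 7 PDGF genes were tested against MECs (2 higher, 2 lower) and 3 against fibroblasts (all higher). For the 157 members 1 was higher and 1 lower than in MECs, and the same 3 were higher than in fibroblasts. The receptor *Pdgfrb* was higher in mural cells than in both. Its sister *Pdgfra*, which marks fibroblasts and was used to choose them, had 72, 0 and 2 UMIs in all members and 0, 0 and 1 in those with under 3 fibroblast UMIs. The call of *Pdgfra* against MECs was lost without the female library (3.28, edgeR adjusted p = 0.162). Its sign changed without the members with 3 or more fibroblast UMIs (-0.54). That change was fixed by the choice and is no result, since *Pdgfra* UMIs were among those that left a member out. The ligand *Pdgfa* was at 243, 334 and 25.1 CPM in mural cells, 576, 355 and 349.6 CPM in MECs and 9.61, 9.45 and 27.2 CPM in fibroblasts. It was higher than in fibroblasts (4.33 ± 0.44, edgeR adjusted p = 1.29e-07), with male replicate 2 inside the range of the fibroblast libraries, and lower than in MECs (-1.15 ± 0.32, edgeR adjusted p = 0.00941), a call that the DESeq2 alternative did not make and that was lost without the members with fibroblast UMIs (-0.66, edgeR adjusted p = 0.108).

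Of the Notch list, 6 of 13 genes were tested, 4 higher and 2 lower than in MECs, and 3 higher and none lower than in fibroblasts, as many as for the 157 members. *Nrip2*, a nuclear receptor interacting protein, had 49, 11 and 5 UMIs in mural cells and none in MECs, fibroblasts or endothelial cells, at least 100.1-fold and 292-fold higher, though not called by the DESeq2 alternative. *Hes1*, a transcriptional target of Notch, was at 335, 576 and 251 CPM in mural cells, 32.6, 21.5 and 39.4 CPM in MECs, 139, 194 and 169 CPM in fibroblasts and 231, 140.2 and 187 CPM in endothelial cells (3.51 ± 0.30, edgeR adjusted p = 4.78e-09 and 1.11 ± 0.24, edgeR adjusted p = 0.00222). The ligand *Jag1* was at 124, 60.6 and 100.5 CPM in mural cells, against 40.5, 28.7 and 19.7 CPM in MECs and 28.6, 28.4 and 16.3 CPM in fibroblasts (1.67 ± 0.37, edgeR adjusted p = 0.00143 and 1.99 ± 0.36, edgeR adjusted p = 3.42e-04). *Notch1* was at 63.9, 60.6 and 75.4 CPM in mural cells and higher than in MECs by 2.31 ± 0.58 (edgeR adjusted p = 0.00404). *Jag2* and *Dll1* were lower than in MECs. The targets *Heyl*, *Hey2* and *Nrarp* had 13, 2 and 2, 11, 3 and 0 and 42, 5 and 0 mural UMIs and were too sparse to test. The calls of *Jag1* (1.64, edgeR adjusted p = 0.256, against myoepithelial cells), *Jag1* (1.59, edgeR adjusted p = 0.277, against fibroblasts) and *Hes1* (0.95, edgeR adjusted p = 0.0522, against fibroblasts) were lost without the female library.

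*Angpt1*, a ligand of the endothelial receptor TIE2, had 16, 1 and 2 UMIs in mural cells (63.9, 30.3 and 50.2 CPM), none in MECs and 91, 21 and 4 UMIs in fibroblasts (24.3, 49.6 and 21.8 CPM), which were higher in male replicate 1. *Angpt2*, its antagonist, was at 144, 182 and 176 CPM in mural cells, 101, 68.5 and 54.4 CPM in fibroblasts and 8.37, 9.05 and 16.3 CPM in endothelial cells, higher than in MECs (5.23 ± 0.52, edgeR adjusted p = 4.33e-08) and not called against fibroblasts (0.76 ± 0.32, edgeR adjusted p = 0.129). *Nrp1*, a coreceptor of VEGF, was at 232, 273 and 151 CPM and higher than in MECs (2.95 ± 0.32, edgeR adjusted p = 2.04e-07). Of 12 genes in the list, 5 were tested, 2 higher than in MECs and 1 higher than in fibroblasts, as many as for the 157 members. The call against fibroblasts was *Flt1*, a VEGF receptor of endothelium, higher than in fibroblasts on 9 mural UMIs and lost without the female library (3.55, edgeR adjusted p = 0.0568) or male replicate 2 (2.32, edgeR adjusted p = 0.0933). All 9 endothelial markers had UMIs in mural cells. They summed to 275, 546 and 553 CPM in mural cells, 214, 89.6 and 172 CPM in MECs and 12436, 12201 and 10341 CPM in endothelial cells, and the part of such transcripts in these calls was not tested.

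Of 20 TGF-beta and BMP genes, 17 were tested, 5 higher and 2 lower than in MECs, and 3 higher and 2 lower than in fibroblasts. For the 157 members 3 were higher and 2 lower than in MECs, with *Tgfb2* no longer called, and 3 were higher and 6 lower than in fibroblasts. *Bmp2* was at 75.8, 152 and 100.5 CPM in mural cells, 0.989, 3.58 and 0 CPM in MECs and 32.0, 23.6 and 5.44 CPM in fibroblasts, higher than in both (5.92 ± 0.77, edgeR adjusted p = 2.21e-06 and 1.73 ± 0.46, edgeR adjusted p = 0.0109), though the second call was lost without male replicate 1 (1.47, edgeR adjusted p = 0.0673). *Id1*, a target of BMP signals, was at 119.7, 91.0 and 176 CPM in mural cells and was also higher than in both (3.64 ± 0.49, edgeR adjusted p = 3.98e-06 and 2.70 ± 0.42, edgeR adjusted p = 6.40e-05). *Id3* was at 515, 1395 and 1231 CPM in mural cells, 44.5, 7.16 and 39.4 CPM in MECs and 554, 822 and 735 CPM in fibroblasts, higher than in MECs (4.54 ± 0.35, edgeR adjusted p = 8.91e-10) and not called against fibroblasts. *Tgfb2*, a ligand, was at 83.8, 152 and 126 CPM in mural cells, higher than in MECs (1.17 ± 0.38, edgeR adjusted p = 0.0249), and *Tgfbr3*, the betaglycan coreceptor, was lower than in MECs (-1.22 ± 0.27, edgeR adjusted p = 0.00134) and fibroblasts (-0.90 ± 0.28, edgeR adjusted p = 0.0273). *Id4* lay between the classes, at 95.8, 182 and 327 CPM in mural cells, 1331, 784 and 749 CPM in MECs and 8.01, 7.09 and 5.44 CPM in fibroblasts. Of the calls above, that of *Tgfb2* against MECs was lost without male replicate 1 (0.88, edgeR adjusted p = 0.136) and without male replicate 2 (0.99, edgeR adjusted p = 0.110), that of *Tgfbr3* against MECs was lost without the female library (-1.01, edgeR adjusted p = 0.196) and that of *Tgfbr3* against fibroblasts was lost without the female library (-0.92, edgeR adjusted p = 0.274), without male replicate 1 (-0.85, edgeR adjusted p = 0.0598) and without male replicate 2 (-0.98, edgeR adjusted p = 0.0542).

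**Figure D5:**
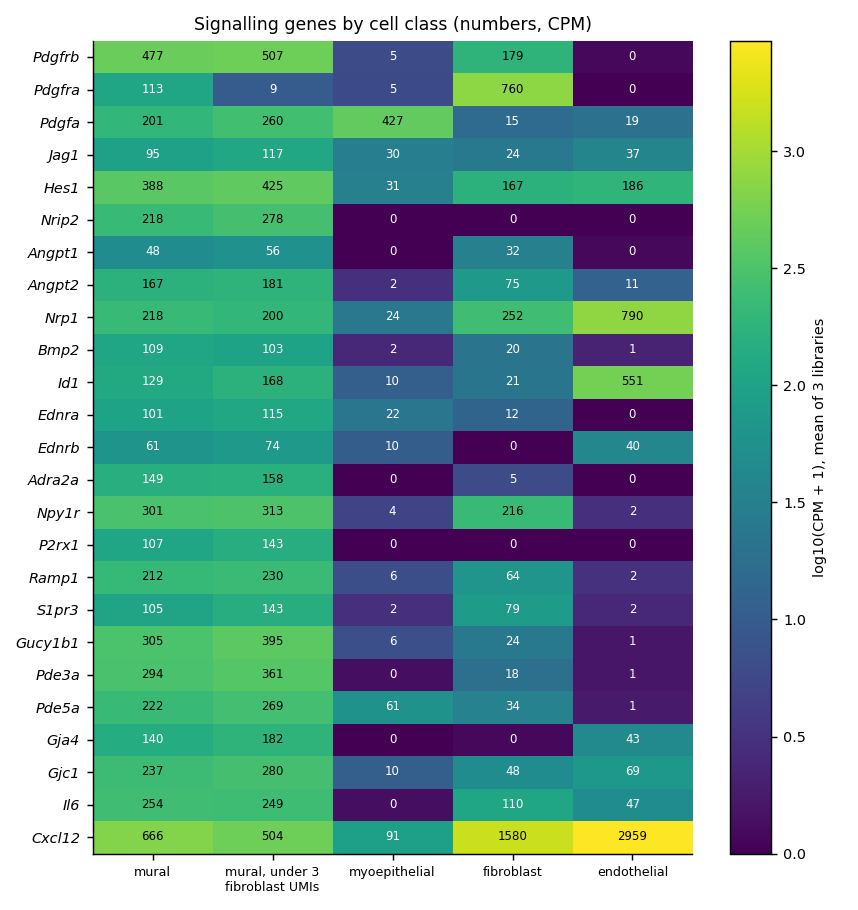
Mean level of 25 signalling genes over the 3 libraries, as log10(CPM + 1) in colour and CPM in numbers, in mural cells, in the mural cells with under 3 fibroblast UMIs and in the other classes. Nrip2 and P2rx1 have no UMI in the other classes shown, and Gucy1b1, Pde3a and Adra2a are highest in mural cells among these classes. Pdgfra drops from 113 to 9 CPM once members with fibroblast UMIs are left out, a drop fixed by the choice, which used Pdgfra itself.

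Matrix genes placed mural cells between MECs and fibroblasts. Of 34 interstitial matrix genes, all were tested, 25 higher and 3 lower than in MECs (median log2 fold change 2.88) and 3 higher and 20 lower than in fibroblasts (median -1.11). *Col3a1*, a fibrillar collagen, was at 2355, 1849.7 and 2964 CPM in mural cells, 69.2, 50.2 and 128 CPM in MECs and 5040.2, 9596 and 6576 CPM in fibroblasts. *Sparc* was at 2946, 4154 and 3618 CPM in mural cells, 1434, 1920.0 and 1487 CPM in MECs and 3465, 7842 and 6103 CPM in fibroblasts. *Aspn* (asporin) was at 339, 334 and 176 CPM in mural cells, with 1 UMI in MECs, and higher than in fibroblasts by 1.66 ± 0.27 (edgeR adjusted p = 8.43e-05). *Postn* (periostin) was higher than in fibroblasts (1.88 ± 0.31, edgeR adjusted p = 1.12e-04) and lower than in MECs (-1.44 ± 0.28, edgeR adjusted p = 2.87e-04), and *Sparcl1* was at 1361, 1243 and 979.8 CPM in mural cells, 184, 63.8 and 32.7 CPM in fibroblasts and 1315, 999 and 881 CPM in MECs. These counts changed with the members that held fibroblast transcripts. The 12 listed fibroblast markers summed to 22935, 6883 and 9496 CPM in mural cells and to 2303, 3702 and 4454 CPM once those members were left out, beside 1870.1, 1257 and 1748 CPM in MECs and 58407, 70449 and 60585 CPM in fibroblasts. Without them 16 matrix genes were higher and 6 lower than in MECs (median 0.98), 3 were higher and 23 lower than in fibroblasts (median -2.32), and *Dcn* turned from 1.95 ± 0.31 (edgeR adjusted p = 3.67e-05) to -0.91 (edgeR adjusted p = 0.00305). *Col3a1* remained higher than in MECs, at 3.78 (edgeR adjusted p = 6.06e-16). Of these calls, that of *Aspn* against fibroblasts was lost without the female library (0.98, edgeR adjusted p = 0.169).

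Of 18 basement membrane genes, 17 were tested, 8 higher and 5 lower than in MECs, and none higher and 9 lower than in fibroblasts. *Lamb2*, the laminin beta-2 chain of vessel walls, was at 247, 273 and 251 CPM in mural cells and 53.4, 46.6 and 34.5 CPM in MECs (2.41 ± 0.32, edgeR adjusted p = 2.56e-06). The epithelial laminin chains *Lama3* and *Lamb3* were among those lower than in MECs. *Col4a1* was at 762, 637 and 377 CPM in mural cells, 671, 738 and 611 CPM in MECs (not called) and 1005, 1661 and 1214 CPM in fibroblasts (-1.12 ± 0.24, edgeR adjusted p = 0.00154). Without the members with fibroblast UMIs, 6 genes were higher and 5 lower than in MECs and 1 higher and 10 lower than in fibroblasts. Among 15 integrins, 9 were tested, 2 higher and 4 lower than in MECs and 3 higher and none lower than in fibroblasts, or 3 and 4 and 3 and 1 for the 157 members. *Itga7*, a laminin receptor of muscle, was at 132, 60.6 and 75.4 CPM in mural cells and 0 in MECs, at least 58.5-fold higher, and higher than in fibroblasts by 5.15 ± 0.60 (edgeR adjusted p = 2.17e-06). *Itgb1*, the common beta subunit, was at 595, 485 and 377 CPM in mural cells and higher than in fibroblasts by 0.76 ± 0.21 (edgeR adjusted p = 0.0143). *Itga1*, a collagen receptor, was at 255, 394 and 151 CPM and higher than in fibroblasts (2.75 ± 0.30, edgeR adjusted p = 4.79e-07). The epithelial subunits *Itga3*, *Itga6* and *Itgb4* and also *Itgav* were lower than in MECs, and without the female library *Itgav* (-1.16, edgeR adjusted p = 0.328) and *Itga3* (-2.32, edgeR adjusted p = 0.250) lost their calls. Among these calls, that of *Itgb1* against fibroblasts was lost without the female library (0.55, edgeR adjusted p = 0.315) and without male replicate 2 (0.75, edgeR adjusted p = 0.0981).

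Transcription factors of vessel walls were tested for 13 of 22 genes, with 7 higher and 3 lower than in MECs and 5 higher and none lower than in fibroblasts, or 8 and 3 and 6 and none for the 157 members. *Mef2c*, a myocyte enhancer factor, was at 599, 970.3 and 377 CPM in mural cells, 289.8, 236 and 227 CPM in MECs and 27.0, 37.8 and 21.8 CPM in fibroblasts (1.24 ± 0.22, edgeR adjusted p = 1.38e-04 and 4.39 ± 0.27, edgeR adjusted p = 2.60e-11). *Ebf1* was at 746, 667 and 528 CPM in mural cells and 798, 513 and 479 CPM in fibroblasts (not called), and at 21.8, 3.58 and 4.92 CPM in MECs (5.53 ± 0.31, edgeR adjusted p = 8.39e-12). *Prrx1*, a mesenchymal homeobox factor, showed the same order, at 407, 303 and 427, 548, 381 and 452 and 15.8, 0 and 4.92 CPM in mural cells, fibroblasts and MECs. *Nr2f2*, the venous factor COUP-TFII, was at 439, 455 and 352 CPM in mural cells and higher than in MECs by 2.55 ± 0.26 (edgeR adjusted p = 5.37e-08) and than in fibroblasts by 0.74 ± 0.22 (edgeR adjusted p = 0.0252). *Ebf2* had 22, 5 and 4 mural UMIs and none in MECs, at least 47.7-fold higher, and was not called against fibroblasts (0.70 ± 0.35, edgeR adjusted p = 0.235). *Foxs1*, a forkhead factor of pericytes, was at 99.8, 91.0 and 151 CPM in mural cells and higher than in fibroblasts by 3.17 ± 0.52 (edgeR adjusted p = 1.14e-04). *Tbx2* had 39, 2 and 1 mural UMIs, was higher than in fibroblasts (1.14 ± 0.37, edgeR adjusted p = 0.0376) and changed sign without the female library (-0.21, edgeR adjusted p = 0.946). With 1 library left out, the call of *Nr2f2* against fibroblasts was lost without male replicate 1 (0.54, edgeR adjusted p = 0.190) and without male replicate 2 (0.65, edgeR adjusted p = 0.163). It was also lost under other alternatives, DESeq2 among them.

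Small regulators of G protein and calcium signals were high in mural cells, with 6 of 10 tested genes higher and 1 lower than in MECs and 6 higher and none lower than in fibroblasts, or 7 and 1 and 6 and none for the 157 members. *Rasl11a*, a small GTPase, was at 367, 1152 and 603 CPM in mural cells, 28.7, 39.4 and 14.8 CPM in MECs and 80.6, 54.4 and 54.4 CPM in fibroblasts (4.27 ± 0.34, edgeR adjusted p = 1.64e-09 and 2.91 ± 0.29, edgeR adjusted p = 8.40e-08). *Rrad*, which inhibits voltage-gated calcium channels, was at 243, 576 and 829 CPM in mural cells, against 0, 0 and 4.92 CPM in MECs and 13.6, 9.45 and 43.6 CPM in fibroblasts. *Rasl12* was at 104, 91.0 and 75.4 CPM in mural cells and higher than in fibroblasts by 7.23 ± 0.64 (edgeR adjusted p = 1.43e-08). *Rgs16* was at 124, 606 and 327 CPM and higher than in both (4.91 ± 0.53, edgeR adjusted p = 1.86e-07 and 3.32 ± 0.41, edgeR adjusted p = 2.89e-06), and *Rgs2* was the gene lower than in MECs. Among 12 genes of respiratory chain isoforms, 9 were tested, 3 higher and 1 lower than in MECs and 4 higher and none lower than in fibroblasts, or 5 and 1 and 6 and none for the 157 members. The vessel isoforms *Cox4i2*, *Ndufa4l2* and *Higd1b* were higher than in both classes, while the common *Cox4i1*, at 874, 1304 and 1005 CPM in mural cells, 839, 1161 and 1064 CPM in MECs and 765, 779.9 and 800.3 CPM in fibroblasts, was not called. *Ndufa4* was lower than in MECs (-0.66 ± 0.21, edgeR adjusted p = 0.0273), a call lost without the female library (-0.77, edgeR adjusted p = 0.0505) or male replicate 2 (-0.56, edgeR adjusted p = 0.231).

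Of the cytokine, chemokine and adhesion genes, *Ccl11*, *Cxcl12* and *Cxcl10* had the highest mean levels in mural cells. Of 19 tested genes, 10 were higher and 2 lower than in MECs, and 2 higher and 5 lower than in fibroblasts. These counts were 9 and 3 and 1 and 8 for the 157 members. *Ccl11* (eotaxin) was at 730.5, 758 and 553 CPM in mural cells, 24.7, 0 and 9.85 CPM in MECs and 1580.1, 962 and 1034 CPM in fibroblasts. *Cxcl12*, a chemokine of stromal and endothelial cells, was at 914, 455 and 628 CPM in mural cells, 2179, 1298 and 1263 CPM in fibroblasts and 2984, 3302 and 2591 CPM in endothelial cells. *Il6* was at 91.8, 394 and 276 CPM in mural cells, with 1 UMI in MECs, and higher than in fibroblasts by 0.91 ± 0.28 (edgeR adjusted p = 0.0283), a call that was lost without male replicate 1 (0.81, edgeR adjusted p = 0.130), without male replicate 2 (0.80, edgeR adjusted p = 0.160) and without the members with fibroblast UMIs. *Il34*, a ligand of the macrophage receptor CSF1R, was the other gene higher than in fibroblasts (2.98 ± 0.60, edgeR adjusted p = 8.97e-04). *Il33* was at 199.6, 0 and 25.1 CPM in all members but at 7.20, 0 and 0 CPM in those with under 3 fibroblast UMIs, and its call against MECs was lost without the female library (1.42, edgeR adjusted p = 0.731). Immune transcripts, with UMIs of 8 of 10 markers and none of the selecting gene *Ptprc*, summed to 599, 1274 and 879 CPM in mural cells, 538, 405 and 576 CPM in MECs and 339.6, 177 and 76.2 CPM in fibroblasts. Of the 5 immune markers tested, *Cd74* and *C1qa* were higher than in fibroblasts and none was called against MECs. For the 157 members both were higher than in MECs as well, and *Cd52* was also higher than in fibroblasts. Their part in the cytokine values was not tested.

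Immediate early and stress genes, which enzymatic dissociation can raise, gave 1 higher and 11 lower genes of 24 against MECs and 4 higher and 2 lower against fibroblasts, or 2 and 10 and 7 and 4 for the 157 members. *Fos* was at 3337, 3912 and 4472 CPM in mural cells, 6410.4, 7881 and 7283 CPM in MECs and 2976, 4089 and 3642 CPM in fibroblasts, lower than in MECs by a log2 fold change of -0.93 ± 0.17 (edgeR adjusted p = 1.26e-04) and not called against fibroblasts. *Klf2*, a flow-responsive factor of the vessel wall, was at 307, 425 and 804 CPM in mural cells and was higher than in both (1.96 ± 0.24, edgeR adjusted p = 9.98e-07 and 1.09 ± 0.22, edgeR adjusted p = 0.00120), at 979, 783 and 749.7 CPM in endothelial cells. Its call against fibroblasts was lost with mitochondrial shares under 5% (0.59, edgeR adjusted p = 0.189). It was also lost without the library block (1.06, edgeR adjusted p = 0.155). *Egr1* was lower than in both (-0.63 ± 0.18, edgeR adjusted p = 0.0110 and -0.81 ± 0.18, edgeR adjusted p = 0.00222), at 2567, 1607 and 1809 CPM. *Hspb1*, a small heat shock protein that binds actin, was higher than in fibroblasts (2.75 ± 0.22, edgeR adjusted p = 1.73e-09) and lower than in MECs (-1.05 ± 0.19, edgeR adjusted p = 1.69e-04). As to single libraries, the call of *Egr1* against MECs was lost without male replicate 2 (-0.62, edgeR adjusted p = 0.0599).

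Genes of the epithelial programme were lower in mural cells than in MECs, a direction partly fixed by the choice of cells. Mural cells had to hold at most 1 UMI of *Krt5* and *Krt14* and none of *Epcam*, and MECs at least 1 of *Krt5* or *Krt14*. These selecting genes took no part in the counts below. Of 20 genes for keratins, junctions and epithelial factors, 16 were tested, none higher and 14 lower than in MECs, as many as for the 157 members, with a median log2 fold change of -4.07, or -3.64 with genes that had no mural UMI placed at their bound. *Trp63*, the basal epithelial factor p63, had 1 UMI in all mural cells and was at 493, 276 and 261 CPM in MECs. *Krt17* and *Sox10* had no mural UMI and were at 508, 634 and 739 CPM and 99.9, 147 and 138 CPM in MECs. The other 2 tested genes, *Krt18* and *Dst*, were not called. *Krt8* and *Krt18*, which the gland's acinar and ductal cells express, were at 31.9, 243 and 251 CPM and 35.9, 334 and 276 CPM in mural cells, beside 427 to 2713 CPM for the 10 acinar and duct markers together and 4814 to 8766 CPM for the same markers in uncalled barcodes, and the part of free RNA in them was not tested.

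Outside the lists, the genes with the largest differences were named by rank. Highest over MECs among genes with 30 or more mural UMIs, and in every library, were *Pcdh19*, *Olfr558*, *Tesc*, *Rgs7bp* and *Nrgn*, none of which had an MEC UMI, followed by *Gm13889*, *Rcan2*, *Gm13861*, *Olfml2b* and *Colec12*. *Olfr558*, an odorant receptor gene expressed in vascular smooth muscle, had 41, 8 and 5 UMIs in mural cells, at least 83.1-fold above MECs, with 1 UMI in fibroblasts and none in endothelial cells. *Pcdh19*, a protocadherin, was at 243, 182 and 126 CPM in mural cells and at 177, 139 and 169 CPM in fibroblasts (not called). *Rcan2*, a regulator of calcineurin, was at 148, 152 and 176 CPM in mural cells and higher than in fibroblasts by 3.24 ± 0.43 (edgeR adjusted p = 6.50e-06). Highest over fibroblasts were *Gm13861*, *Pcp4l1*, *Nrgn*, *Olfr558*, *Parm1*, *Tesc*, *Fbxl22*, *Fabp4*, *Inpp4b* and *Bcam*. *Pcp4l1*, a calmodulin-binding peptide, was at 363, 425 and 276 CPM in mural cells and 561, 429.8 and 326 CPM in endothelial cells, and *Inpp4b*, a phosphoinositide phosphatase, was at 179.6, 485 and 226 CPM in mural cells and 14.3, 13.6 and 16.3 CPM in endothelial cells. *Fabp4*, a fatty acid carrier of capillary endothelium, was at 99.8, 152 and 25.1 CPM in mural cells and 950.4, 1135 and 847 CPM in endothelial cells. The call of *Nrgn* was not made by the DESeq2 alternative in either comparison.

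Lowest against MECs were *Trim29*, *Fhod3*, *Dlk2*, *Ecrg4*, *Dapl1*, *Aqp4*, *Lgals7*, *Dsc3*, *Barx2* and *Serpinb5*. *Trim29* had no mural UMI and was at 512, 541 and 566 CPM in MECs, and *Fhod3*, an actin-nucleating formin of muscle, had none either against 248, 158 and 163 CPM in MECs. Lowest against fibroblasts were *Cilp*, *Prrx2*, *Spon1*, *Sfrp2*, *Ube2g2*, *Sult5a1*, *Spred2*, *Abcg1*, *Igf1* and *Sned1*. *Igf1*, the growth factor, was at 216, 60.6 and 0 CPM in mural cells and 673, 1052 and 582 CPM in fibroblasts (-2.48 ± 0.37, edgeR adjusted p = 3.54e-05). Without the female library the calls of *Cilp* (-6.59, edgeR adjusted p = 0.0606, against fibroblasts), *Spred2* (-1.27, edgeR adjusted p = 0.696, against fibroblasts) and *Abcg1* (-6.36, edgeR adjusted p = 0.0850, against fibroblasts) were lost, and that of *Abcg1* was also lost without male replicate 1 (-2.28, edgeR adjusted p = 0.0795) and without male replicate 2 (-2.25, edgeR adjusted p = 0.0935).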

How the data were processed

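Libraries (10x Genomics) of whole lacrimal gland were analysed, 1 of female and 2 of male mice, each a pool. With library as a block, p-values measure how differences between classes within a pool vary over the 3 pools. They do not measure the spread between animals, and the 3 classes share 1 estimate of the spread. The authors deposited raw UMI counts per gene and barcode, both for all barcodes and for those called as cells, before their own removal of ambient RNA and doublets. Per the submitters' processing notes they were made with Cell Ranger 6.1.2 on mm10. The annotation release was not given in the sources used here. Called barcodes were kept where they held over 500 UMIs, over 200 genes and a mitochondrial share below 15%. Ambient RNA and doublets were not removed, and the cells with the highest doublet scores were left out only as an alternative. Cells were assigned to classes by UMIs of the selecting genes given in the text, and these members and all gene lists were chosen with earlier results of these data known. UMIs were summed per library and class and fitted together for mural, myoepithelial and fibroblast cells with edgeR 4.0.16 (R 4.3.3, filterByExpr, TMM factors, library block, quasi-likelihood test). Genes that chose a class took no part in counts or tests of its comparison. Transcripts of 131 tear-product genes were left out of CPM denominators only. The mural sums held 364715, 74171 and 132885 UMIs, which limits precision in the male libraries.

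Genes named were taken from the 6 with the highest mural level in each list, signalling genes with 10 or more mural UMIs and the 10 largest called differences outside the lists in each direction, with at least 30 UMIs in the higher class. Other list genes named, such as *Filip1l*, *Csrp1* and *Kcnj8*, were singled out after their values were seen. Some list genes are counted but not reported singly here. The alternatives were other normalizations, DESeq2 1.42.0, no low-count filter, no library block, each library left out, stricter cell limits and, added after seeing the data, members without fibroblast transcripts or without cells over 10000 UMIs. The fits were tested on simulated counts.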

Additional observations from a re-analysis of the deposited data

Results flagged for a closer look

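For 24 named values the log2 ratio of the mural level to that of the other class had one sign in the female library and the opposite sign in both male libraries. In each comparison 216 named genes were tested, and those with too few UMIs in a library were not examined for sign. How many signs would part by chance was not tested. Several female ratios were very small, such as -0.0110 for *Lpo* and -0.0119 for *Cox6a1*, and their sign says little. The differences in sign were not tested, sex cannot be told apart from sequencing core and day, and the female members include the 40 cells with 3 or more fibroblast UMIs. Values are given for the female library, male replicate 1 and male replicate 2.

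Against fibroblasts, genes of the vessel and stroma were among them. *Id3*, a target of BMP signals, had log2 ratios of -0.106, 0.762 and 0.744. *Ebf1* gave -0.0970, 0.379 and 0.139, the receptor gene *Bmpr2* -0.0342, 0.611 and 0.884 and the ligand gene *Tgfb2* -0.766, 0.222 and 0.358. *Igfbp5*, a binding protein of insulin-like growth factors, gave -0.281, 0.662 and 1.04, and *Plvap*, an endothelial marker, -0.539, 1.41 and 1.53. *Ccl2* ran the other way, at 0.213, -0.962 and -1.95, and the TNF receptor gene *Tnfrsf1a* was at -0.582, 0.196 and 0.206. Of the immediate early and stress genes, *Jun* had ratios of -0.165, 0.269 and 0.489, *Junb* -0.146, 0.495 and 0.296 and *Hspa8* -0.132, 0.413 and 0.152. Of the acinar and duct genes, *Krt18* had -0.128, 1.89 and 1.02, *Fxyd3* -0.598, 0.606 and 1.16, *Pigr* -0.0910, 0.594 and 0.844 and *Lpo*, lactoperoxidase, -0.0110, 0.0839 and 0.570.

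Against MECs, *Col4a1*, a basement membrane collagen, had log2 ratios of 0.185, -0.213 and -0.696 and *Dst* (dystonin) -0.299, 1.03 and 0.306. *Junb* gave -0.474, 0.632 and 0.273, *Tnfrsf1a* -0.345, 0.596 and 0.585, *Tgfb3* -0.0314, 0.497 and 1.13 and the respiratory gene *Cox6a1* -0.0119, 1.06 and 0.592. The immune genes *Cd74* and *Tyrobp* gave -0.177, 1.70 and 0.317 and -0.472, 0.760 and 0.181, and *Pigr*, the polymeric immunoglobulin receptor of secretory epithelium, -0.0415, 0.274 and 1.70. The values of *Tgfb3*, *Tyrobp*, *Pigr*, *Plvap*, *Krt18* and *Fxyd3*, in either comparison, rested on under 15 mural UMIs in each library. In the male libraries *Bmpr2* (5 and 6), *Tgfb2* (5 and 5), *Tnfrsf1a* (5 and 5), *Ccl2* (9 and 6) and *Dst* (14 and 8) also had few.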

How the results depend on the processing

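Of the named genes called, 101 of 147 against MECs and 81 of 122 against fibroblasts were called in the same direction under every alternative that could be fitted for them. Some calls were lost under more alternatives than the left-out libraries named above. Against fibroblasts those of *Nr2f2*, *Tgfbr3* and *Abcg1* were lost under 8 alternatives each, *Tbx2* and *Il6* under 7 and *Itgb1* under 6. Against MECs those of *Pdlim3* and *Tgfb2* were lost under 6. Leaving out 1 library gave 320 to 820 genes higher and 295 to 571 lower than in MECs, and 255 to 435 higher than in fibroblasts, lowest in each case without the female library. Without the low-count filter 833 genes were lower than in MECs and 611 lower than in fibroblasts, since more genes were tested. The count lower than in fibroblasts was 175 without the library block, 573 with at least 3 marker UMIs per member and 673 without members with 3 or more fibroblast UMIs. With mitochondrial shares under 5%, 240 genes were higher and 216 lower than in fibroblasts. DESeq2 called 241 lower than in fibroblasts. The cause of these shifts was not tested. The share of mural cells was 0.880, 0.537 and 0.665% with at least 3 marker UMIs, and 0.807% in the female library without members with fibroblast UMIs. Log2 fold changes against MECs changed sign for *Cxcl14* (-1.24), *Dcn* (-0.91), *Pdgfra* (-0.54) and *Sfrp2* (-2.17) without those members, and for *Ltf* (-1.36, not called with all members) and *Ramp2* (-0.076) with at least 3 marker UMIs. The change of *Pdgfra* was fixed by the choice, since its UMIs were among those that left a member out. Leaving out 1 library moved *Sfrp2* against MECs between -0.010 and 4.75 and *Tbx2* against fibroblasts between -0.21 and 1.41, lowest without the female library. No paired analysis of the sexes, the groups of the labels, was possible because each library is a pool of different animals. A shared replicate number is only a label. The classes themselves were compared within libraries.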

Other observations

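Transcripts of 6 cycling genes (*Mki67*, *Top2a*, *Pclaf*, *Stmn1*, *Birc5* and *Cdk1*) summed to 7.98, 394 and 0 CPM in all mural members and to 14.4, 0 and 0 CPM in the members with under 3 fibroblast UMIs, beside 7.48, 92.2 and 21.8 CPM in fibroblasts and 128, 145 and 244 CPM in endothelial cells. The signal in male replicate 1 thus lay in the 2 members of that library with 3 or more fibroblast UMIs. Haemoglobin genes had no UMI in any mural cell.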
